A study of Mus musculus with 4 samples.

Results

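The genes described are Gsc (goosecoid), Prrx1, Prrx2, Shox2, Pitx1, Alx4, Meis1 and Meis2, homeobox transcription factor genes that lie outside the Hox clusters and pattern mesenchyme. They are 8 of the 41029 genes in the deposited table and were chosen by symbol, with their values in the Tet2-/- and wild-type libraries already known. Their levels and differences are therefore given as a description, with no test. RNA came from mesenchymal stem/progenitor cells of C57BL/6 mouse bone marrow, grown in MesenCult medium, replated near confluence and harvested with Trizol. There were 2 libraries of genotype Tet2-/- and 2 of wild type; age, the kind of Tet2 allele and the number of animals are not given in the sources used here. The Tet2 enzyme oxidises methylated cytosine, and the design addresses how expression in these stromal cells differs without it.

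A homeobox encodes the homeodomain, a helical fold that reads short AT-rich DNA motifs. Paired-class members such as Gsc, Prrx1, Prrx2, Shox2, Pitx1 and Alx4 act in limb bud, jaw and skull mesenchyme, while Meis1 and Meis2 belong to the TALE class and bind DNA together with PBX and HOX proteins. In mouse embryos Prrx1 marks limb bud mesenchyme and Pitx1 specifies the hindlimb. Stromal cells in the marrow of limb bones descend from such mesenchyme.

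Promoters are shown for the gene that was low in both Tet2-/- libraries (Gsc), the one that was high in the first of them (Shox2) and the most abundant (Prrx1). Each is the RefSeq window of 250 bases before to 50 after the gene start in GRCm38.p6, on the gene's own minus strand, and CpG pairs, the sites at which DNA is methylated and at which Tet2 acts, are in capitals. The windows are chr12:104473187-104473486 for Gsc, chr3:66981722-66982021 for Shox2 and chr1:163313601-163313900 for Prrx1.
Gsc: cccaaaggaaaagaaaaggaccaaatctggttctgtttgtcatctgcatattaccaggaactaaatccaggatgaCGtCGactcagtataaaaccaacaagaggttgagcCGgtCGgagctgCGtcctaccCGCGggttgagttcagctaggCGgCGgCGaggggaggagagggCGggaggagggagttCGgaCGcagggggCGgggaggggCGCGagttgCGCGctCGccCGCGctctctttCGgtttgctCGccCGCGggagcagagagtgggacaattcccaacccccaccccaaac
Shox2: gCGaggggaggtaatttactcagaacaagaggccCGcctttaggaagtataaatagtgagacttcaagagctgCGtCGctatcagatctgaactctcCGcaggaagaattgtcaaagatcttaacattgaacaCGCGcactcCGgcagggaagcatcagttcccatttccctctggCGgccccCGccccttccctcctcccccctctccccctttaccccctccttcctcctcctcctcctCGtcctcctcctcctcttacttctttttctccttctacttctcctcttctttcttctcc
Prrx1: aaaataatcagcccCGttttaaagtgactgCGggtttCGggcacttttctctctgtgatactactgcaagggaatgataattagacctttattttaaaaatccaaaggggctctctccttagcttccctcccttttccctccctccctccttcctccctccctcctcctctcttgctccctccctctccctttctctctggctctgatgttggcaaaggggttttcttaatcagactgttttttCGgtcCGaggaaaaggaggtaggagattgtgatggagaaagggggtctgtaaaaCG
The Gsc window holds 25 CpG pairs, more than 81.6% of the 32851 windows in the RefSeq table, whose median is 7. Shox2 holds 11 and Prrx1 holds 6. Of the others that matched, Prrx2 holds 28, Meis1 holds 15 and Meis2 holds 13, so 6 of the 8 genes had a window. No DNA methylation was analysed here.

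Expression is in FPKM, a read count corrected for gene length and sequencing depth. Comparing levels between genes depends on the lengths used, which are given with the processing below. The library totals behind the FPKM, worked out from the values, came to between 10096878 and 21337246 reads. The targeted gene, Tet2 (chromosome 3, 133463679 to 133545139 in GRCm38), was at 11.6 and 9.70 FPKM in the Tet2-/- libraries and at 7.01 and 8.39 in wild type. Its mean was thus not lower, and a gene total does not show whether an exon is missing, so libraries are named by their labels as knockout 1, knockout 2, wild type 1 and wild type 2. Of 12 stromal markers all were above 0 in every library, and 11 passed the filter of a mean of at least 1 FPKM. Endothelial markers were close to 0, with a summed level of 0.853 to 1.48 FPKM over 7 genes. Macrophage markers were present, with a summed level of 74.6 to 117 FPKM over 9 genes and none at 0. Lyz2 was the highest of them, at 36.9 FPKM in knockout 1, 66.7 in knockout 2 and 65.9 and 63.0 in wild type.

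The knockout libraries differed from each other more than the wild-type libraries did, which touches most results below. Of 12344 genes, 1543 were at least 2-fold apart between knockout 1 and knockout 2 and 51 between wild type 1 and wild type 2. The 9 osteoblast markers summed to 17159 FPKM in knockout 2, to 6564 in knockout 1 and to 8103 and 7951 in wild type. Most of the sum in knockout 2 was Col1a1, the type I collagen gene, at 13294 FPKM there and 2628 in knockout 1. Alpl, the bone alkaline phosphatase gene, was at 501 in knockout 2 and 8.21 in knockout 1, and Ibsp, the bone sialoprotein gene, at 435 and 0.488. Spp1, the osteopontin gene, ran the other way, at 2528 in knockout 2 and 3871 in knockout 1. Bglap, the osteocalcin gene, was at 65.3 in knockout 2 and listed at 0 in knockout 1. The 7 adipocyte markers summed to 224 FPKM in knockout 1, to 65.3 in knockout 2 and to 28.7 and 25.4 in wild type. Lpl, a lipase gene, made up most of the sum in knockout 1 at 190 FPKM and was at 17.4 in knockout 2, whereas Fabp4, a fatty acid binding protein gene, was at 4.58 in knockout 1 and 21.2 in knockout 2. Nes, a stromal progenitor marker, was at 38.1 FPKM in knockout 1 and 0.903 in knockout 2, below 78.7 and 79.4 in wild type. The stromal markers did not move together. Of the 11 that passed the filter, 5 had both knockout libraries below both wild-type ones (24.8% of all genes tested). Nes, Eng, Cxcl12 and Pdgfrb were among them. Eng, which passes the test over all genes given below, was at 1.53 and 1.59 FPKM beside 110 and 102 in wild type. Cxcl12 was at 43.4 and 46.6 FPKM beside 291 and 298. Pdgfra, Nt5e and Itgb1, 3 of the 11, had both above (29.4%). In bulk RNA, fewer cells that express a gene and less RNA per cell cannot be told apart, and the part of these cell type markers in the results was not tested.

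In wild type the levels were tightly repeated, and in FPKM they fell into an order that rests on the gene lengths used. Prrx1 was highest at 132 ± 7.43 FPKM (mean ± SD, n = 2), followed by Prrx2 at 85.0 ± 2.97. Meis2 at 20.5 ± 2.10 and Pitx1 at 18.9 ± 0.904 came next, and their ranges overlapped. Gsc at 15.0 ± 0.151 lay above Shox2 at 12.5 ± 0.703. Meis1 was at 5.53 ± 0.327 and Alx4 near background at 0.0664 ± 0.0483. Other neighbours in this order did not overlap. In both knockout libraries Prrx1 and Prrx2 kept ranks 1 and 2, whereas Alx4 moved from rank 8 to rank 4 in knockout 2 and Gsc from rank 5 to rank 7 in knockout 1 and 8 in knockout 2.

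**Figure D1:**
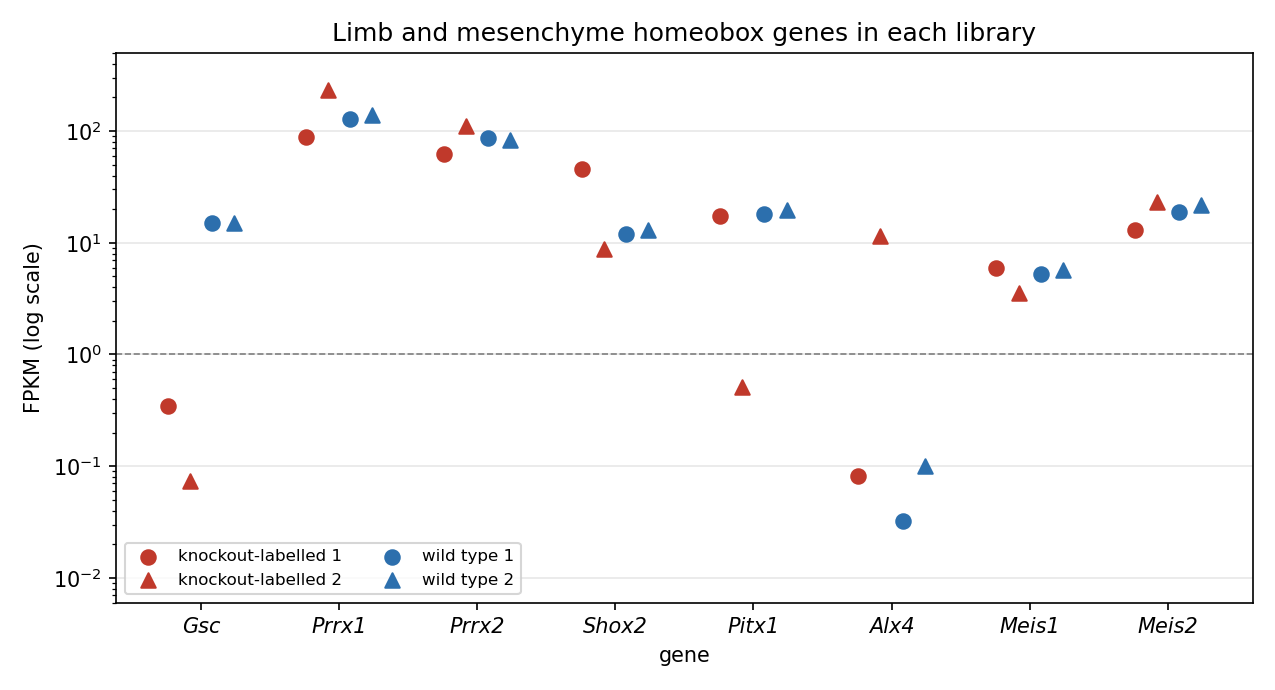
FPKM on a log axis for the 8 genes, with 1 point for each library; red marks the 2 Tet2-/- libraries, blue the 2 wild-type libraries and the dashed line 1 FPKM. Gsc is below 1 FPKM in both red points and near 15 in both blue ones, while Shox2, Pitx1 and Alx4 each have 1 red point far from the other 3 points.

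Differences were read on log2(FPKM + 1), as Tet2-/- minus wild type, and fitted with limma over 12344 genes, those whose mean reached 1 FPKM. All 8 genes passed that filter, Alx4 through knockout 2. Over all genes the fit called 2 (0.0162%) at an adjusted p under 0.05, Eng and Ftl1-ps1, and 2114 (17.1%) had an unadjusted p under 0.05. The groups did not overlap for 2 of the 8, Gsc and Pitx1, beside 54.2% of all genes tested. Both had the knockout libraries below (24.8% of all genes tested), and 0 of the 8 had them above (29.4%). The median difference of the 8 was -0.11, beside 0.03 over all genes. The labels do not say whether libraries of a genotype come from separate animals or cultures. The errors therefore measure only the spread between these samples, with each gene's variance drawn by limma toward a trend over all genes tested.

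Gsc, a repressor named for its role in the embryonic organizer and needed in mouse for normal ribs and facial bones, was almost absent from both knockout libraries. It was at 0.348 FPKM in knockout 1 and 0.0739 in knockout 2, and at 15.1 and 14.9 in wild type 1 and 2. Both knockout libraries lay far below both wild-type ones, and the gene was the 1 member of the 8 at least 2-fold lower in every pair (1.13% of all genes tested were). The means were 0.211 ± 0.194 and 15.0 ± 0.151 FPKM, with a log2 difference of -3.73 (SE 0.20). It was -5.75 and -6.43 with pseudocounts of 0.1 and 0.01. These values rest on 7 and 2 reads in the knockout libraries and on 193 and 335 in wild type, worked out from the FPKM. Relative to library totals the wild type was 42.9 times knockout 1 (95% exact interval 20.7 to 107) and 202 times knockout 2 (55.7 to 1673). With the reads of both knockout libraries pooled, the ratio was 78.3 (40.9 to 172). These intervals cover counting error only. The intervals for knockout 1 and knockout 2 overlap, but they share the same wild-type reads, and no test between the knockout libraries was run.

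Gsc (ENSMUSG00000021095) is a short gene of chromosome 12, at 104471209 to 104473330 (minus strand), and GENCODE lists no other gene across it. By Euclidean distance over the 4 libraries on log2(FPKM + 1), centred on the wild-type mean, the closest profile was that of Gm8276, annotated as a processed pseudogene on chromosome 3. It was at 0.418 and 0.0517 FPKM in the knockout libraries and at 14.6 and 14 in wild type (distance 0.14). Reads of a pseudogene can be shared with its parent gene, so that level is uncertain. Next came Cxcl14, a chemokine gene, at 0.831 and 0.437 FPKM beside 14.4 and 15.0 (distance 0.65). Lce1f, a cornified envelope gene, followed at a distance of 1.22, C2, a complement gene, at 1.25, and Grem1, an antagonist of bone morphogenetic proteins, at 1.44. With 4 libraries in 2 groups, such likeness reflects mainly the wild-type to knockout step.

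**Figure D2:**
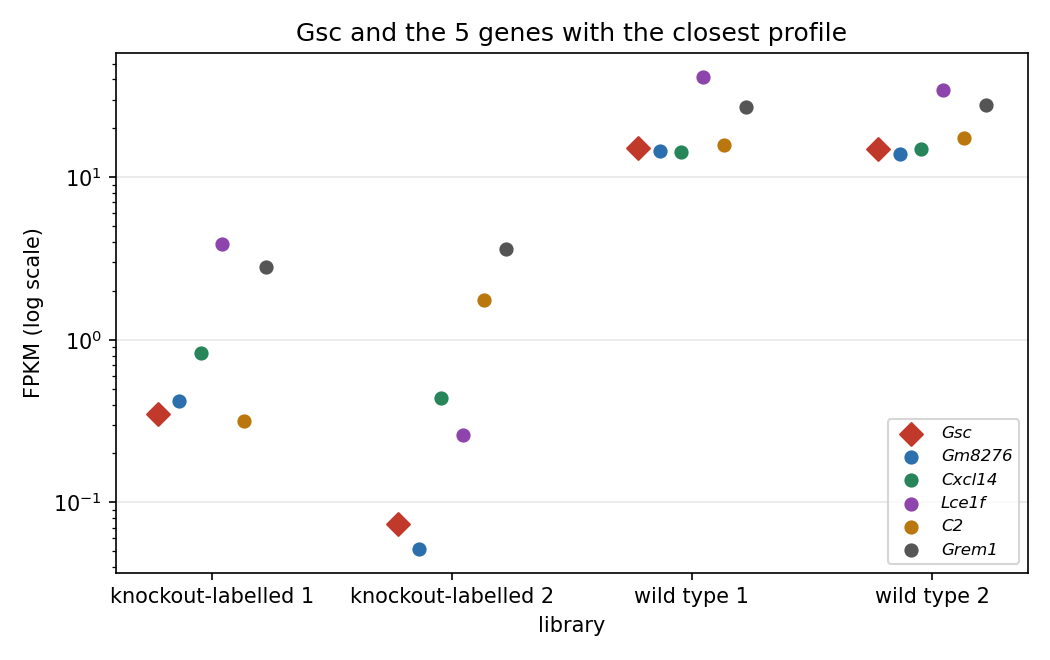
FPKM on a log axis in each of the 4 libraries for Gsc (diamonds) and the 5 genes whose profile was closest to it (circles); each point is 1 library. All 6 genes lie above 10 FPKM in both wild-type libraries and at 3.90 or less in both knockout libraries.

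Pitx1 was nearly absent from 1 of the 2 knockout libraries. This gene, which directs hindlimb identity in the mouse embryo, was at 17.5 FPKM in knockout 1 and 0.515 in knockout 2, with 18.2 and 19.5 FPKM in wild type. Knockout 1 was within 1.08-fold of the wild-type mean although it lay just below both wild-type values, and knockout 2 was low. From 17 reads in knockout 2 and 822 in the wild-type libraries, the wild type was 37.0 times knockout 2 relative to library totals (95% exact interval 23.0 to 63.8, counting error only). The log2 difference of -1.91 (SE 1.28) averages these unlike libraries, at -0.10 for knockout 1 and -3.71 for knockout 2. Pitx1 (ENSMUSG00000021506) spans 55825051 to 55836192 of chromosome 13, minus strand. It shares 108 exon bases with Gm28760 on the same strand and 165 with Gm47071 on the other, where reads cannot be assigned.

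Tbx4 and Tbx5, T-box genes of the hindlimb and forelimb that act with Pitx1 and Hox genes in the mouse embryo, were not detectable at a useful level. Tbx4 reached 0.0616 FPKM at most and Tbx5 was listed at 0 in all 4 libraries.

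Alx4 showed the reverse pattern in the same library. It encodes an aristaless-like factor of anterior limb and skull mesenchyme, and was at 11.6 FPKM in knockout 2, 0.0820 in knockout 1 and 0.0322 and 0.101 in wild type. Knockout 2 was the only library of the 4 above 1 FPKM. The value rests on 1519 reads in knockout 2, 8 in knockout 1 and 13 over both wild-type libraries. Relative to library totals knockout 2 was 153 times wild type (95% exact interval 89.0 to 287) and knockout 1 was 1.08 times (0.389 to 2.82), with intervals that cover counting error only. The log2 difference was 1.79 (SE 1.27), 3.16 and 3.92 with pseudocounts of 0.1 and 0.01, and 0.02 without knockout 2. Alx4 (ENSMUSG00000040310) lies on chromosome 2 (plus strand), from 93642384 to 93681339. Ext2, a heparan sulfate synthesis gene, overlaps it on the other strand but shares 0 exon bases with it.

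Shox2 stood out in the other knockout library. This gene, required for the upper limb bones and jaw joint in the mouse, was at 45.5 FPKM in knockout 1, 8.78 in knockout 2 and 12 and 13 in wild type. Knockout 1 was 3.63 times the wild-type mean and knockout 2 was 0.70 times, so the knockout libraries lie on opposite sides of wild type. The log2 difference was 0.66 (SE 0.81). It came to 1.78 without knockout 2 and to -0.47 without knockout 1. Shox2 (ENSMUSG00000027833, chromosome 3, 66971727 to 66981771, minus strand) shares 153 exon bases with Rsrc1 on the other strand. Rsrc1, a splicing factor gene, ranged from 18.9 to 24.4 FPKM, and since no strand setting is given in the sources used here, reads in the shared bases cannot be assigned.

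Prrx1 and Prrx2, paired-related factors of limb and craniofacial mesenchyme, stayed the most abundant of the 8 genes in every library. Prrx1 was at 87.7 FPKM in knockout 1 and 234 in knockout 2, on either side of 127 and 138 in wild type. Prrx2 was at 62.8 and 112, on either side of 87.1 and 82.9. For both genes knockout 1 was the lowest and knockout 2 the highest of the 4 libraries. The log2 differences were 0.11 (SE 0.51) for Prrx1 and -0.01 (SE 0.31) for Prrx2. The ratio of knockout 2 to knockout 1 was 2.66 for Prrx1 and 1.79 for Prrx2. Prrx1 (ENSMUSG00000026586) runs from 163245119 to 163313710 on chromosome 1 and Prrx2 (ENSMUSG00000039476) from 30834972 to 30881251 on chromosome 2.

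Meis1 and Meis2, cofactors of HOX proteins, showed small differences: knockout 1 was 1.67 times knockout 2 for Meis1, and knockout 2 was 1.78 times knockout 1 for Meis2. Meis1 was at 5.90 FPKM in knockout 1 and 3.54 in knockout 2, with 5.30 and 5.76 FPKM in wild type. Meis2 was at 13.1 and 23.3 FPKM, beside 19.0 and 22.0. For each gene the knockout values enclosed those of wild type, Meis1 with knockout 1 on top and Meis2 with knockout 2. The log2 differences were -0.22 (SE 0.26) for Meis1 and -0.21 (SE 0.31) for Meis2. Meis1 (ENSMUSG00000020160) lies on chromosome 11 from 18879817 to 19018985 and Meis2 (ENSMUSG00000027210) on chromosome 2 from 115863064 to 116065839, both on the minus strand. Meis1 shares 1029 exon bases with Gm37818 on the same strand and 896 with Gm16140 on the other, where reads cannot be assigned.

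Among the partner genes of the PBX family, Pbx2 was at 18.8 and 20.1 FPKM in the knockout libraries and at 16.2 and 16.8 in wild type, above wild type in both. Pbx3 was at 17.5 and 12.9 FPKM beside 11.8 and 13.0, with knockout 2 inside the wild-type range. Neither passed the test (adjusted p = 0.412 and 0.532, limma).

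By library, 4 of the 8 genes were at least 2-fold from both wild-type libraries in at least 1 knockout library. In knockout 1 these were Gsc, which was lower, and Shox2, which was higher, where 5.37% of all genes tested were that far out on either side. In knockout 2 they were Gsc and Pitx1 on the lower side and Alx4 on the higher, where 11.0% of all genes were. Since the genes were chosen with these values known, the shares are not compared.

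**Figure D3:**
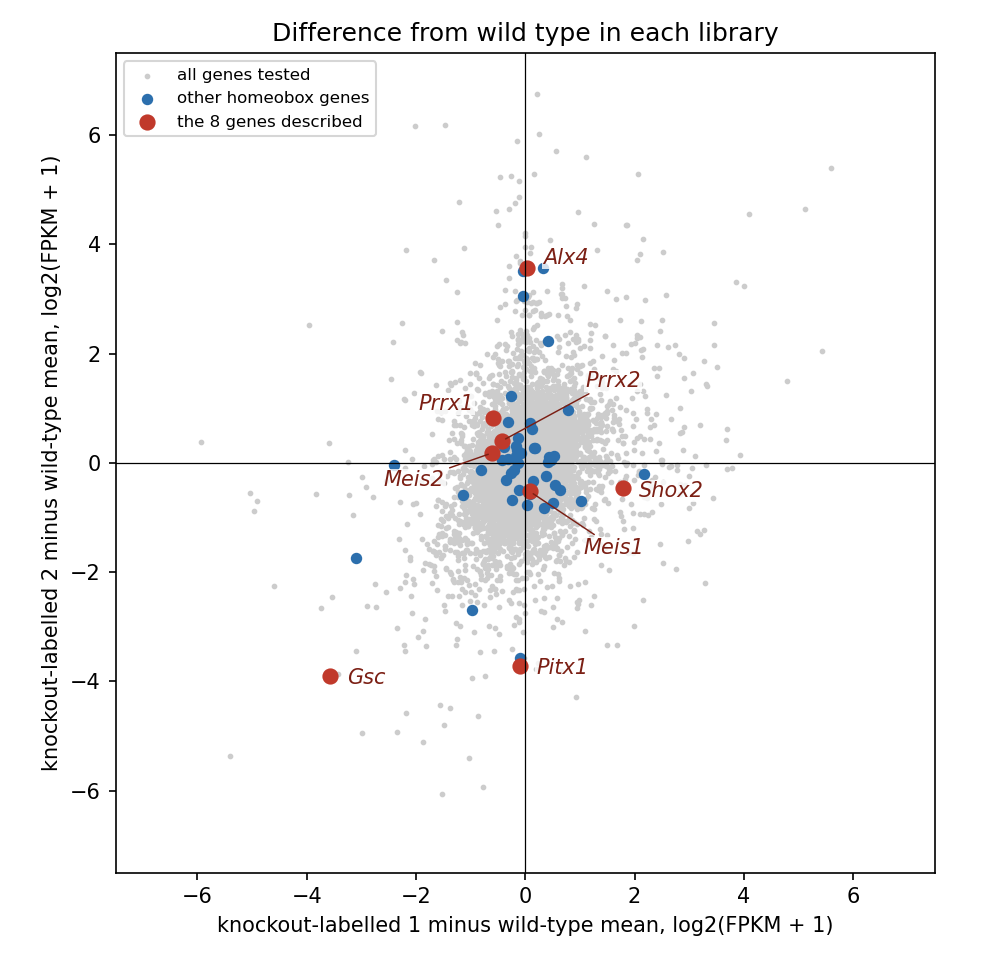
Log2(FPKM + 1) of knockout 1 (horizontal) and knockout 2 (vertical) minus the wild-type mean, with 1 point for each of 12344 genes; grey points are all genes tested, blue the other homeobox genes listed and red the 8 genes described. Gsc lies at -3.57 and -3.89, low in both libraries, while Pitx1 and Alx4 lie along the vertical axis and Shox2 along the horizontal one.

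Among 126 other homeobox genes outside the Hox clusters, 46 passed the filter and 0 were called by limma in either direction, beside 0.0162% of all genes tested. At an unadjusted p under 0.05 there were 1 higher and 3 lower (17.1% of all genes tested in either direction). A voom fit on the recovered reads called 0 of all genes tested, and so 0 of these 46 as well. Their groups did not overlap for 17, or 37.0%, beside 54.2% of all genes, with 9 above (29.4% of all genes) and 8 below (24.8%). Their median log2 difference was 0.04 beside 0.03 over all genes. Six2, a SIX-class gene of skeletal and kidney progenitors, was at 0.802 and 3.62 FPKM in the knockout libraries beside 14 and 15 in wild type (adjusted p = 0.229, limma). It was the 1 gene of the 46 at least 2-fold out in both knockout libraries.

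The MSX genes, NK-like factors of limb and bone mesenchyme, lay on opposite sides of wild type. Msx2 was at 7.84 and 1.68 FPKM in the knockout libraries beside 16.1 and 16.6 in wild type (adjusted p = 0.277, limma). Msx1 was at 3.17 and 3.71 FPKM beside 1.40 and 1.44 (adjusted p = 0.230, limma). For each, both knockout libraries lay outside the wild-type range, and neither gene passed the test.

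Several homeobox genes were 2-fold or more above wild type on log2(FPKM + 1) in knockout 2 and not in knockout 1, as Alx4 was. Those in this paragraph outside the naming rule (Dlx5, Isl1, Vax2, Irx1 and Irx3) were chosen after their values were seen. Dlx5, an osteoblast and limb ridge factor gene, was at 21.4 FPKM in knockout 2, 0.915 in knockout 1 and 0.790 and 1.18 in wild type. Its partner Dlx6 was at 12.9, 0.472, 0.0926 and 0.263 FPKM in that order. In FPKM without a pseudocount, knockout 1 was 2.65 times the wild-type mean for Dlx6 (8 reads) and 31.4 times for Dlx3 (14 reads). Isl1, a LIM factor gene of the hindlimb field in mouse, was at 7.61 FPKM in knockout 2 and at most 0.0724 elsewhere. In all, 5 of the 46 were 2-fold or more above wild type in knockout 2 (5.14% of all genes tested), which are Dlx3, Dlx5, Dlx6, Isl1 and Irx3, and 3 were 2-fold or more below (5.87%). Those below were Msx2, Six2 and Vax2, a ventral eye factor gene, which was at 0.113 FPKM beside 10.9 to 13.8 in the other 3 libraries. In knockout 1 there was 1 above, Irx1, and there were 2 below, Six2 and Hopx, a small homeodomain protein gene without DNA binding (3.0% and 2.37% of all genes). Dlx3, Dlx5, Dlx6 and Isl1 passed the filter through knockout 2, and Irx1 through knockout 1. The counts above wild type are thus fixed in part by the same values, and they are not compared with the shares.

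**Figure D4:**
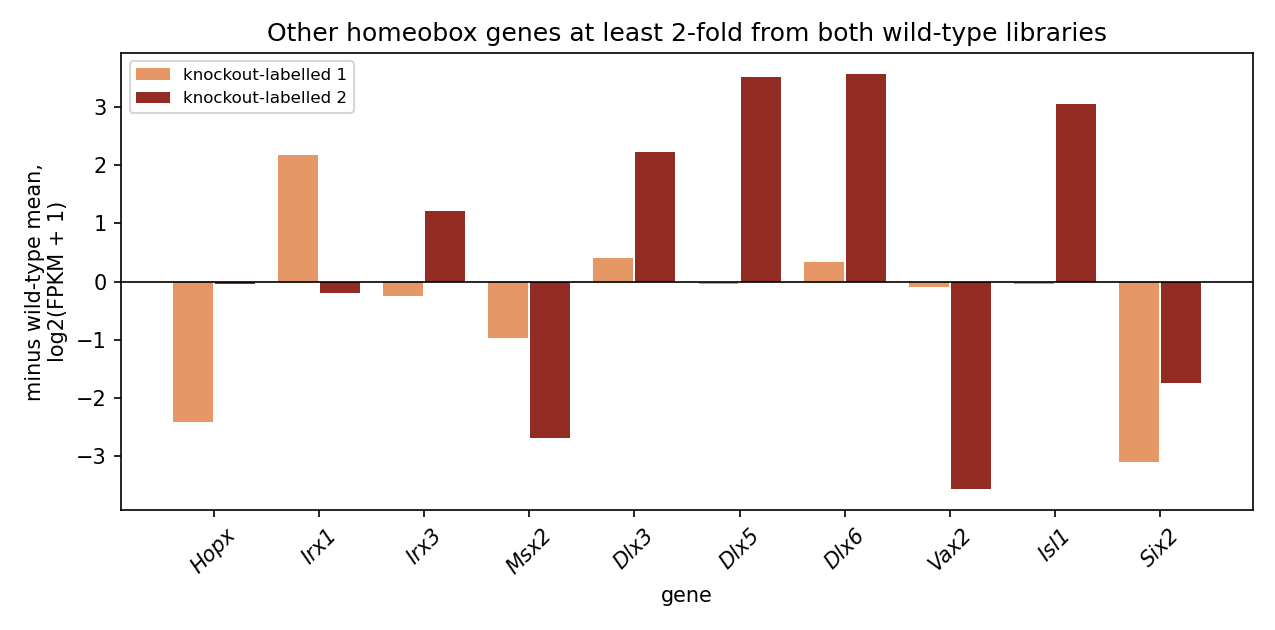
Log2(FPKM + 1) of knockout 1 (light bars) and knockout 2 (dark bars) minus the wild-type mean for the 10 other homeobox genes at least 2-fold from both wild-type libraries in a knockout library. Bars start at 0; Six2 is far below 0 in both libraries, while Dlx5, Dlx6 and Isl1 exceed 3 in knockout 2 alone.

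Limb and facial mesenchyme regulators without a homeobox were 54 by the list, of which 34 passed the filter. Of these, 0 were called by limma, beside 0.0162% of all genes tested. At an unadjusted p under 0.05 there were 3 higher and 5 lower (17.1% of all genes tested in either direction). The voom fit called 0 of all genes tested, and so 0 of these 34 as well. The groups did not overlap for 18, or 52.9%, beside 54.2% of all genes, and the median log2 difference was 0.18 beside 0.03. Grem1, which sustains limb bud outgrowth by blocking bone morphogenetic proteins, was at 2.80 and 3.64 FPKM in the knockout libraries beside 27.2 and 27.7 in wild type (adjusted p = 0.0867, limma). Tfap2a, a facial mesenchyme factor gene, was at 0.106 and 0.598 FPKM beside 6.69 and 6.20 (adjusted p = 0.150, limma). Both were below wild type in both knockout libraries, as Gsc was. Gli2, a Hedgehog effector gene, was at 11.0 and 3.50 FPKM beside 0.190 and 0.287 (adjusted p = 0.229, limma). In knockout 2, 11 of the 34 were 2-fold or more above wild type and 7 were 2-fold or more below, beside 5.14% and 5.87% of all genes tested. In knockout 1 there were 3 above and 3 below, beside 3.0% and 2.37% of all genes. The list was set with earlier results of these data known. Some of its genes passed the filter through a single knockout library, such as Aldh1a2, at 9.50 FPKM in knockout 2 and at most 0.725 elsewhere. The counts are therefore not compared with the shares.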

How the data were processed

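The labels describe RNA sequencing of 4 libraries, 2 of genotype Tet2-/- and 2 of wild type, and samples were grouped by their titles. The authors deposited 1 table of FPKM for 41029 Ensembl mouse genes, and all its value columns were mapped. The submitters' processing notes name TopHat2 2.0.12, Bowtie2 2.2.3, HTSeq 0.6.1 and the build mm10; how lengths, totals and strand were set is not given in the sources used here. FPKM are relative to a library's total, so a rise of abundant genes lowers the rest. Names and coordinates are from GENCODE M21 (GRCm38, the assembly of mm10), which holds 40456 of the identifiers.

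The FPKM are quotients of whole numbers: for all 25309 genes above 0, whole reads were found to a relative tolerance of 1e-06, adding up to 97.68% to 97.84% of the totals. They are the smallest counts that give the values. The length found equals the exon length in GENCODE for 32.3% of the 25161 genes compared, Gsc among them. For the others of the 8 genes it is shorter. It is 1548 beside 2656 bases for Pitx1, 6155 beside 7060 for Alx4 and 1751 beside 3311 for Shox2. For Prrx1 it is 2021 beside 11066 bases, and for Prrx2 919 beside 1961. For Meis1 it is 3495 beside 10532, and for Meis2 1746 beside 12043. The order of levels between genes rests on these lengths, whereas the ratio of a gene's values between libraries does not.

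limma 3.58.1 in R 4.3.3 was fitted to log2(FPKM + 1) of genes whose mean reached 1 FPKM, allowing for a trend of variance with the mean. Its p-values are two-sided and adjusted by the Benjamini-Hochberg method across 12344 genes. An exact permutation test of 2 libraries against 2 cannot go below 0.33. At least 2-fold means a difference of at least 1 on that log2 scale. Intervals of read ratios are exact conditional binomial. No set test was run. Alternatives were pseudocounts of 0.1 and 0.01, no filter or a mean of at least 5 FPKM, 2 other scalings, a replicate block, voom on the recovered reads and leaving out each library.

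The 8 genes, the lists and the tests were chosen with earlier results of these data known. Named are the 8 genes and their PBX and T-box partners; from each list up to 4 genes without overlap between the groups by size of difference, and the 2 most abundant; the 5 genes closest to Gsc; the nearest tested gene on each side of a member; and up to 4 abundant genes of each marker list. Of these the text prints those that describe a group. 1 gene of the rule is not reported here. Bglap, Nes, Pdgfra and Nt5e were chosen after their values were seen.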

Additional observations from a re-analysis of the deposited data

How the results depend on the processing

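For the 8 genes, 63 log2 differences under alternatives other than leaving out a library and 32 with a library left out were computed. Of the first 63, 5 moved by more than 1 SD between replicates and 1 changed sign, Prrx2 under quantile normalization (0.03 beside -0.01). Gsc went from -3.73 to -5.75 and -6.43 with pseudocounts of 0.1 and 0.01 and to -6.40 with voom, since a pseudocount of 1 shrinks differences of genes near 0. Its range without 1 library was -3.89 to -3.57. Alx4 went from 1.79 to 3.92 with a pseudocount of 0.01 and to 4.2 with voom. The sign changed without knockout 1 for Shox2, Prrx2 and Meis2, without knockout 2 for Prrx1 and Meis1, and without wild type 1 for Prrx2. Alx4 did not pass a filter of a mean of at least 5 FPKM. Of all genes, limma called 1 with a pseudocount of 0.1 and 1 with 0.01, and voom on recovered reads called 0 (2044 at an unadjusted p under 0.05). The replicate block called 0 (1328 at an unadjusted p under 0.05); deviations of same-numbered libraries correlated at 0.006 across genes, and no label pairs them. Leaving out 1 library gave 0 to 7415 calls over all genes and 0 to 55 among the other homeobox genes and limb regulators. The high ends came without knockout 1, where the single knockout library is taken to have the spread of wild type. Without knockout 2 the counts were 5734 and 41, and without wild type 1 or without wild type 2 limma called 0 of all genes (274 and 312 at an unadjusted p under 0.05). Genes whose groups do not overlap numbered 10516 without a filter on low values, when more genes were counted, and 7847 to 11291 with 1 library left out, beside 6686. The median of all genes moved by less than 0.1 under every scaling tried. Depth limits Gsc and Alx4, whose low values rest on 2 to 11 reads a library.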

Other observations

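Values of some of the nearest tested genes on either side of the homeobox genes are given by library. Ptx3, a pattern recognition gene 746 kb from Shox2, was at 64.0 FPKM in knockout 1 and 5.68 in knockout 2, with 1.28 and 1.42 FPKM in wild type. Like Shox2 it was highest in knockout 1, but unlike Shox2 it was above wild type in both knockout libraries. Serpina3n, a protease inhibitor gene 56.9 kb from Gsc, was at 5.99 and 2.57 FPKM in the knockout libraries beside 0.672 and 0.409 in wild type, opposite in direction to Gsc. Dicer1, a microRNA processing gene on the far side of Gsc, was at 6.05 and 6.75 FPKM beside 7.58 and 7.24. Cd82, a tetraspanin gene 179 kb from Alx4, was at 60.2 FPKM in knockout 2, 21.7 in knockout 1 and 38.7 and 36.5 in wild type, and like Alx4 it was highest in knockout 2. Beside Pitx1, Pcbd2 was at 12.6 and 12.5 FPKM in the knockout libraries and 14.2 and 16.4 in wild type, at like levels in knockout 1 and knockout 2.

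The promoter windows were searched on both strands for TAATCC, the motif bound by Gsc and Pitx1, for TAATTA, bound by many paired-class factors, and for TGACAG, bound by Meis factors. TAATTA occurs once in the Prrx1 window and in 0 of the other 5 windows, and 5.29% of all RefSeq windows hold it. TAATCC and TGACAG occur in 0 of the 6 windows, and 7.06% and 19.2% of all windows hold them. No motif overlaps another here, and an absent match says only that these letters are not in the window.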
